A study of Mus musculus with 12 samples.

Results

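The matrix proteases and their inhibitors were examined as the genes whose name on the array starts with Mmp, Adamts or Timp followed by a digit. The rule gave 43 genes out of 27373 gene names, with 74 of the 41174 oligos of the array. They comprise 21 matrix metalloproteinases (Mmp), 18 genes of the Adamts family and the 4 tissue inhibitors of metalloproteinases (Timp). RNA came from whole back skin of male mice labelled C57BL/6J, 8 weeks old and shaved before the first application. Daily, 200 µL was applied of 3% MXD (minoxidil, the positive control), 10% N-CE (a cell extract made under vacuum at low temperature from the cactus Notocactus ottonis) or VC, the vehicle of propylene glycol, ethanol and water that the treated mice received too. Skin was sampled at 1W, 2W and 3W, and RNA of the 6 mice of a group was pooled. A treated pool and the VC pool of the same week were labelled with different dyes and read on 2 arrays with the dyes exchanged, which gave 6 comparisons on 12 arrays. Each treatment and week is thus 1 pool, and the SD printed after ± is over the 2 arrays and covers measurement only. A week has 1 VC pool for both treatments, and its 4 arrays lie on 1 slide, so that effects of slide and of week cannot be told apart.

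Matrix metalloproteinases are zinc enzymes made as inactive precursors that cut collagens, gelatin, proteoglycans and many bound growth factors once the propeptide is removed. The ADAMTS enzymes are secreted relatives with thrombospondin repeats, and their members trim procollagen ends, cut aggrecan and versican or still lack a well-defined substrate. TIMPs bind the active site of most matrix metalloproteinases and hold them in check. In skin these genes are known from wound repair, where basal keratinocytes, fibroblasts and leukocytes make collagenases and stromelysins, and from the hair cycle, in which the growing follicle remodels the dermis around it.

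A log2 fold is given as treated over VC, from the dye-normalized ratio that the scanner software wrote for each spot. A gene was measured when at least 1 of the 2 groups was well above background on at least 1 array and both arrays kept a spot not marked as an outlier. It was called up- or down-regulated when each of the 2 arrays had a software P under 0.01, the ratios pointed one way and the mean fold was above 1.5 or below 0.75. That P describes the spot, not the mice. Each gene is represented by its brightest oligo. In an alternative, the background was corrected with normexp and the arrays normalized with loess, which shrinks ratios of dim spots. Its fold is given where it ends a call or changes a called fold by more than 1.5 times. Of the 43 genes, 28 were above background in both groups of all 6 comparisons, and Adamts13, Mmp1a, Mmp21 and Mmp24 were above background in none. Agreement between dye-swapped arrays differed between comparisons. Across oligos above background in both groups, which are not independent replicates, r was 0.60 in MXD at 2W and 0.44 in N-CE at 1W, but 0.05 in MXD at 3W and -0.20 in N-CE at 2W. In N-CE at 2W, 15 of 35 members above background in both groups had the same sign on both arrays, against 25 of 30 in MXD at 2W. Markers of the labelled tissue were present, with 7 or 8 of 8 fibroblast markers, 4 to 7 of 7 epidermis markers and 11 or 12 of 12 hair follicle markers measured in each comparison. The others lacked a fold because their spots were marked as outliers on at least 1 array.

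Over all comparisons 14 of the 43 members were called at least once, with 18 calls in all, and 15 of these lay in the MXD comparisons. Calls over all genes lay mostly in MXD too. They were 1165 up and 1880 down in MXD at 2W, against 99 and 506 in N-CE at 1W, the N-CE comparison with most calls. The share of all genes called at least once was not computed. In MXD at 1W, 4 of 35 measured members were up-regulated, against a background of 1.25% of all measured genes, and 1 was down-regulated, against 1.27%. In MXD at 2W, 5 of 32 were up- and 3 down-regulated, where 6.21% and 10.0% of all measured genes were. At this week the share of members down-regulated was 9.38% and so near the background. In MXD at 3W, 0 of 30 were up- and 2 down-regulated, with backgrounds of 0.293% and 0.287%. In N-CE at 1W, 0 of 35 were up- and 3 down-regulated, with backgrounds of 0.543% and 2.77%. No member was called in N-CE at 2W (0 of 35, backgrounds 0.118% up and 0.0752% down) or at 3W (0 of 34, backgrounds 0.204% and 0.214%).

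**Figure D1:**
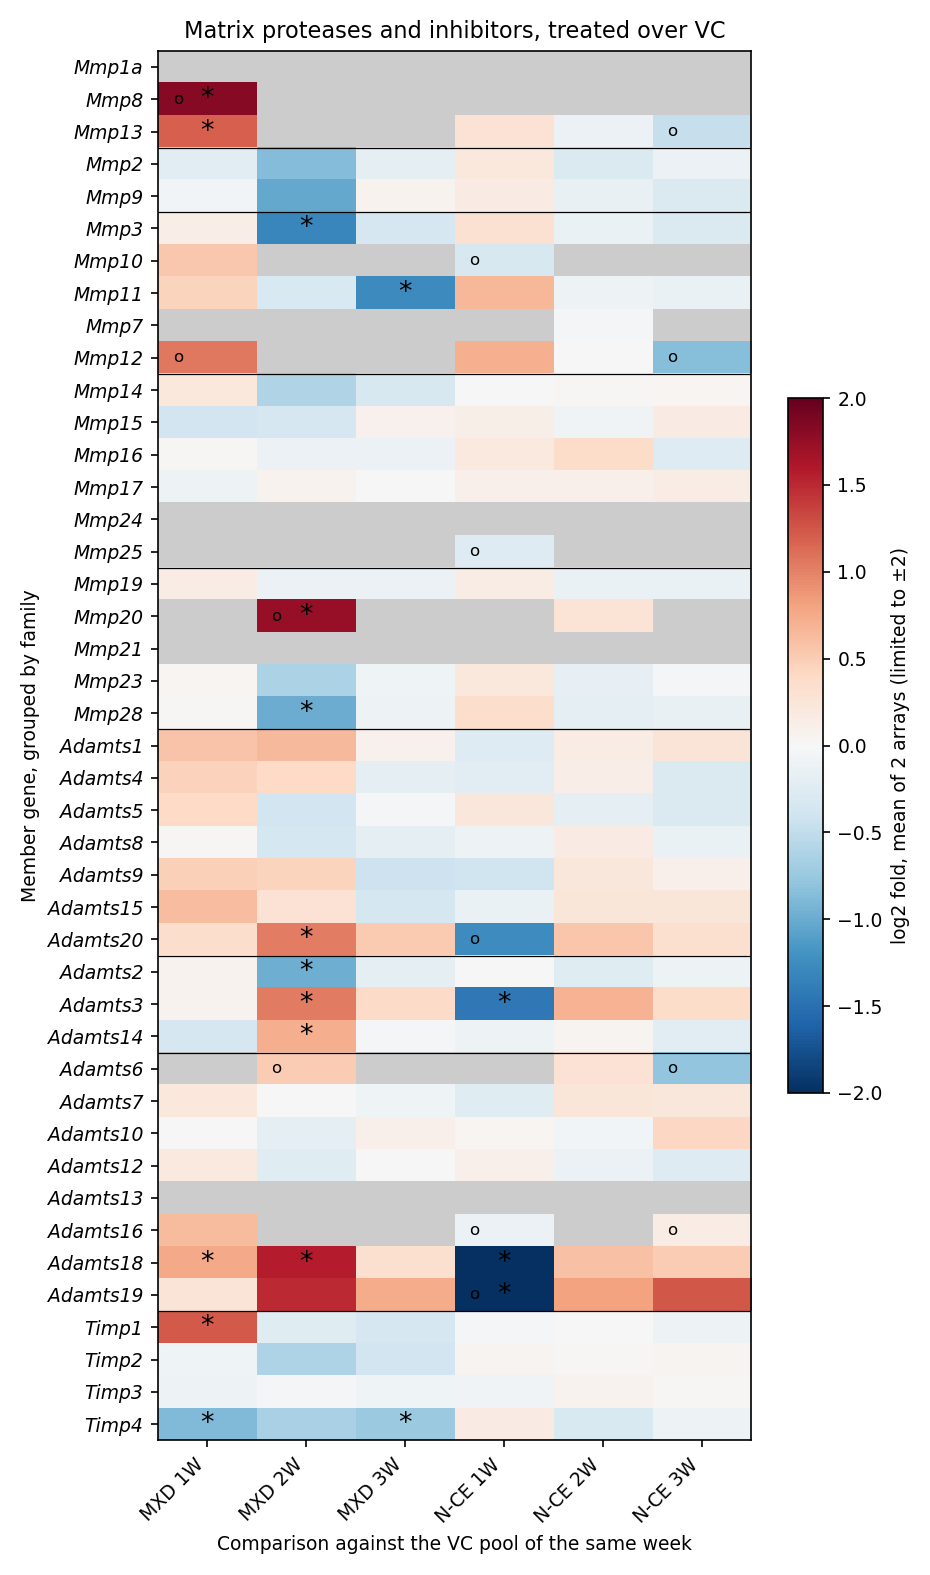
Log2 fold, treated over VC, of the 43 member genes (rows, grouped by family) in the 6 comparisons (columns), as the mean of 2 arrays. An asterisk marks a call, grey a gene above background in neither group, and o a gene above background in 1 group only, whose colour is the software's ratio and not a measured fold. The darkest cells are Mmp8 in MXD at 1W, Mmp20, Adamts18 and Adamts19 in MXD at 2W, and Adamts18 and Adamts19 in N-CE at 1W.

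The Mmp and Adamts genes had medians on opposite sides of 0 in several comparisons. In MXD at 2W the median log2 fold was -0.47 ± 0.17 over 12 measured Mmp genes and 0.42 ± 0.11 over 16 Adamts genes, while the median of all genes was 0.03. Of these, 2 Mmp and 10 Adamts genes were higher than in VC, where 9769 of all 18751 measured genes were. The order was turned in N-CE at 1W, with 0.19 ± 0.00 over 15 Mmp genes and -0.17 ± 0.08 over 16 Adamts genes against 0.02 for all genes. In MXD at 1W the medians were 0.14 ± 0.01 for Mmp and 0.30 ± 0.09 for Adamts genes. There 26 of the 35 measured members were higher than in VC, where 9087 of all 18557 measured genes were. At 3W the medians lay between -0.14 and 0.15 in both treatments. With genes above background in 1 group only entered at their lower bound, the Adamts medians became 0.34 in MXD at 2W and -0.14 in N-CE at 1W. These medians are descriptions and were given no test.

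**Figure D2:**
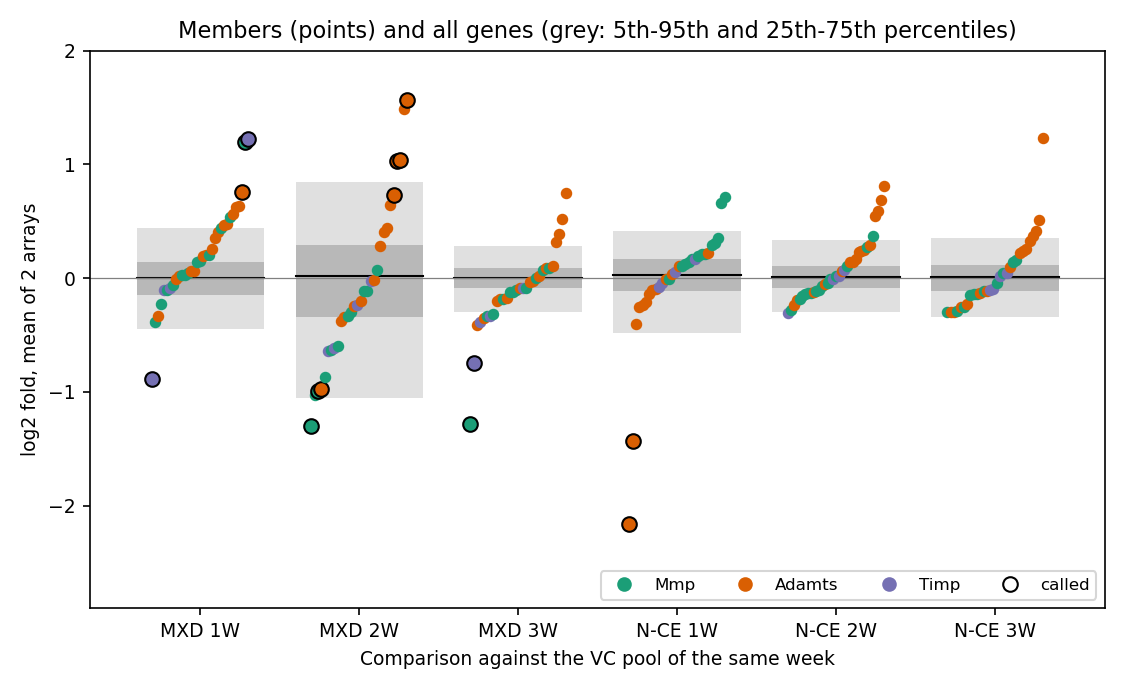
Log2 fold, as the mean of 2 arrays, of the members above background in both groups (points, coloured by family, ordered by value within a comparison) against the 5th to 95th and 25th to 75th percentiles of all genes above background in both groups (light and dark grey) and their median (black line). Larger points with a black edge were called. In MXD at 1W, 9 of 33 members lay above the 95th percentile of 0.45, and in MXD at 3W 8 of 30 lay below the 5th percentile of -0.29.

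Among the inhibitors, Timp1 was up-regulated in MXD at 1W. Timp1 is the secreted TIMP that is typically induced by cytokines and injury (oligo on chromosome X, 20451675 to 20451733 of mm9). Its processed signals were 2158 and 2268 in VC and 4665 and 5712 in MXD on the 2 arrays, so the groups did not overlap. The log2 folds were 1.11 and 1.33, a mean of 1.22 ± 0.16 or 2.33-fold, with P of 1.08e-06 and 2.1e-08. A second Timp1 oligo was called too, with 1.05 ± 0.11. At 2W and 3W of MXD the log2 folds of Timp1 were -0.24 ± 0.23 and -0.33 ± 0.12. In N-CE they were -0.04 ± 0.09, -0.01 ± 0.19 and -0.11 ± 0.05. The 1W pool of N-CE, measured against the same VC pool, gave 1959 and 2082 beside 1922 and 2242 in VC, so its arrays overlapped with VC.

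Timp4 was down-regulated in MXD at 1W and 3W. It is the TIMP of most restricted expression, known mainly from heart, skeletal muscle and fat (oligo on chromosome 6, 115196120 to 115196179 of mm9). Its signals were 752 and 761 in VC and 414 and 405 in MXD at 1W. At 2W they were 692 and 655 in VC and 478 and 388 in MXD, and at 3W 440.2 and 474 in VC and 274 and 272 in MXD. On all 6 MXD arrays Timp4 was below its VC. The log2 folds were -0.88 ± 0.03, -0.64 ± 0.16 and -0.74 ± 0.08. The value at 2W was not called, since P was 0.0118 on 1 array. In N-CE they were 0.17 ± 0.03, -0.31 ± 0.15 and -0.10 ± 0.17.

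Markers of skeletal muscle moved in the MXD comparisons as well. Of the 10 markers, all measured, 6 were down- and 1 up-regulated at 1W, 10 down-regulated at 2W and 4 at 3W. Their median log2 folds were -0.66 ± 0.13, -1.45 ± 0.25 and -0.45 ± 0.02 in MXD and -0.11 ± 0.13, -0.43 ± 0.25 and -0.32 ± 0.02 in N-CE. Their summed single-channel levels at 2W were 282742 and 297884 in VC and 135364 and 91008 in MXD, and none of the 10 was below background. The 6 adipocyte markers had medians of -0.32, -0.68 and -0.03 in MXD, with 0, 4 and 0 down-regulated, and 0.31, -0.41 and -0.26 in N-CE. The part of muscle or fat content in the Timp4 values was not tested. In a pool of whole skin, fewer cells of a type and less RNA per cell cannot be told apart.

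Timp2, which besides inhibiting also takes part in the activation of proMMP-2 by MMP-14, was called in no comparison. Its lowest value was -0.62 ± 0.23 in MXD at 2W, where array values were -0.46 and -0.78. Timp3, the TIMP that binds to the matrix itself, lay within -0.11 ± 0.10 and 0.07 ± 0.20 in all 6 comparisons, none of them called. In N-CE the 2 arrays of Timp2 had opposite signs at each week, for example 0.39 and -0.28 at 1W.

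**Figure D3:**
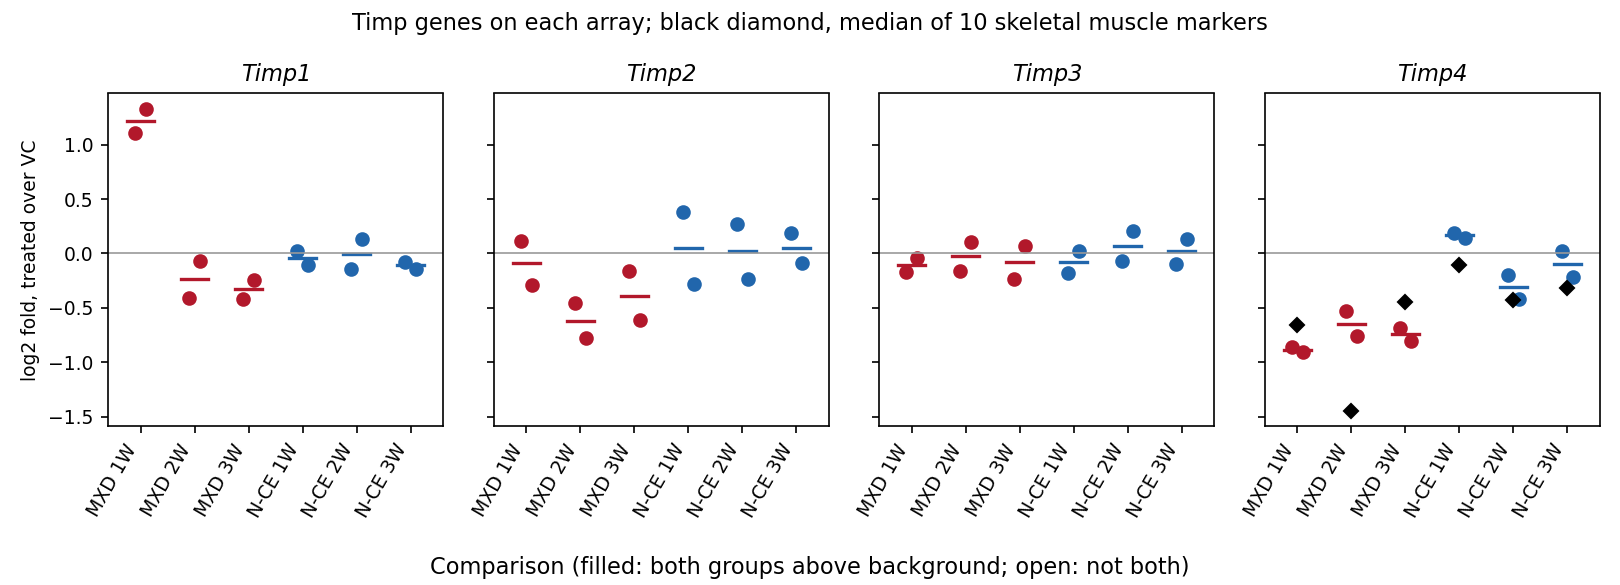
Log2 fold, treated over VC, of the 4 Timp genes on each array (points; red, MXD; blue, N-CE) with the mean of the dye swap (line). Black diamonds beside Timp4 are the median of 10 skeletal muscle markers. Timp1 stood at 1.11 and 1.33 on the arrays of MXD at 1W and between -0.42 and 0.13 on the other 10, and Timp4 lay between -0.91 and -0.53 on the 6 MXD arrays.

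The collagenases, which cut fibrillar collagen, were called in MXD at 1W only. Mmp13, the interstitial collagenase of mouse skin, was up-regulated there (oligo on chromosome 9, 7282762 to 7282821 of mm9). Its signals were 49.4 and 36.6 in VC and 116 and 81.4 in MXD, with no overlap, and its log2 fold was 1.19 ± 0.05 or 2.29-fold. With normexp and loess it was 0.54 and no longer called. In N-CE at 1W it was 0.30 ± 0.09 and at 2W -0.11 ± 0.19, neither called, and at 3W it was above background in VC only, at least 1.06-fold higher there. At 2W and 3W of MXD neither group was above background for Mmp13. Mmp8, the collagenase stored in neutrophil granules, was above background on both MXD arrays at 1W, with signals of 37.7 and 29.6, and on neither array in VC, with 10.4 and 8.59. It was called up-regulated and was at least 1.21-fold higher than VC, and with normexp and loess its log2 fold was 0.27 and not called. Such a bound divides the bright group's single-channel level by the other group's level. Where that level is lower than the lowest one still counted as above background on that side, the latter is used. Levels are normalized per channel (normexp, loess, Aquantile) and averaged over the dye swap. Where the other group's own level is used on both arrays, the bound is the normexp and loess fold itself, as for Mmp8 here and for Mmp20 in MXD at 2W. In the other 5 comparisons Mmp8 was above background in neither group. Mmp1a was above background in no group of any comparison.

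Neutrophil and wound epidermis markers moved in MXD at 1W too. Of 10 neutrophil markers 8 were measured and 4 up-regulated, S100a8 with 2.89 ± 0.00, S100a9 with 2.51 ± 0.14, Csf3r with 1.04 ± 0.23 and Cxcr2, which was above background in MXD only. The granule genes Ngp and Elane were above background in neither group, and Camp and Ltf in VC only. Mpo and Lcn2, above background in both groups, had -0.12 ± 0.29 and -0.05 ± 0.57 and were not called. Of the 8 measured markers 5 were higher than in VC, with a median of 0.68 ± 0.19. That median became 0.33 with genes above background in 1 group only entered at their lower bound. Summed levels of the list were 2498 and 2869.9 in VC and 10295 and 13550.3 in MXD. The same sums on the N-CE arrays of 1W were 2671 and 2776 in VC and 4239.9 and 4419.6 in N-CE, with 1 of 5 measured markers up-regulated. Of 5 wound epidermis markers 3 were up-regulated in MXD at 1W, among them Krt16 with 2.78 ± 0.20. Their part in the values of Mmp8, Mmp13 and Timp1 was not tested.

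The stromelysins cut proteoglycans, laminin and fibronectin and activate other proMMPs. Mmp3 (stromelysin 1) was down-regulated in MXD at 2W (oligo on chromosome 9, 7455751 to 7455810 of mm9). Its signals were 18359.9 and 11154 in VC and 6638 and 5078 in MXD, with no overlap, a log2 fold of -1.30 ± 0.24. The values at 1W and 3W were 0.14 ± 0.01 and -0.34 ± 0.04, and in N-CE 0.31 ± 0.09, -0.13 ± 0.33 and -0.29 ± 0.05. Mmp11 (stromelysin 3), an enzyme known from involuting and tumour stroma that furin activates inside the cell, was down-regulated in MXD at 3W (oligo on chromosome 10, 75386026 to 75386085 of mm9). There its signals were 2387 and 2891 in VC and 1143 and 1024 in MXD, a log2 fold of -1.28 ± 0.31 or 0.412-fold. It was the lowest of the members at that week. At 1W Mmp11 had 0.44 ± 0.29 in MXD and 0.66 ± 0.32 in N-CE. Both were positive on each array and neither was called, with P under 0.01 on 1 of the 2 arrays. At 2W it had -0.30 ± 0.36 and -0.10 ± 0.39, and in N-CE at 3W -0.14 ± 0.32.

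Mmp10 (stromelysin 2), which is made at the wound edge, was above background in both groups in MXD at 1W only, with log2 folds of 0.16 and 0.91 and no call. Mmp12, the metalloelastase of macrophages, was above background on 1 MXD array at 1W and on no VC array, which gave at least 1.19-fold. Its signals were 13.6 and 15.7 in VC and 38.5 and 23.6 in MXD. Its log2 folds in N-CE at 1W were 0.22 and 1.22, positive on both arrays but not called. In N-CE at 3W Mmp12 was above background in VC only, at least 1.12-fold higher there. The 10 macrophage markers had a median of 0.27 ± 0.06 in MXD and 0.23 ± 0.10 in N-CE at 1W, with 0 and 0 up-regulated, and their part in the Mmp12 values was not tested. Mmp7 (matrilysin) was measured in N-CE at 2W only, with -0.48 and 0.39.

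**Figure D4:**
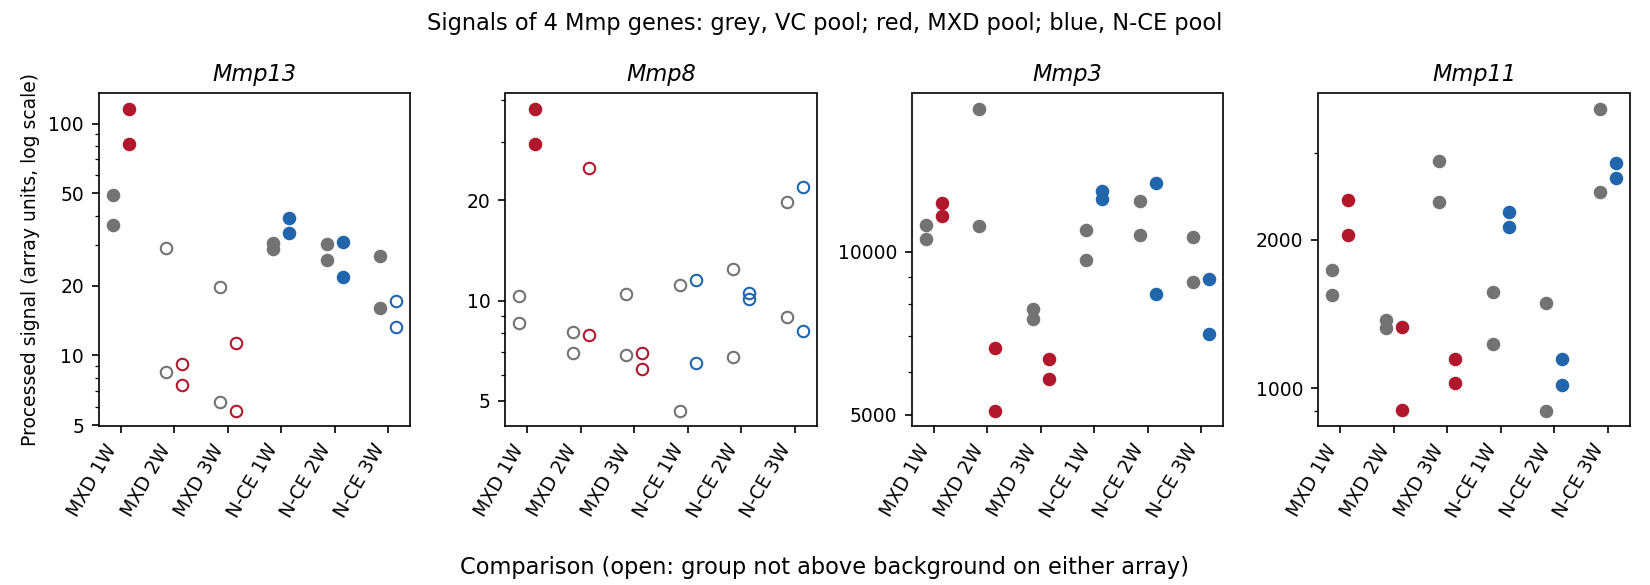
Processed signals (array units, log scale) of Mmp13, Mmp8, Mmp3 and Mmp11 in each comparison, 1 point per array (grey, VC; red, MXD; blue, N-CE; open, the group was above background on neither array). In MXD at 1W both Mmp13 and Mmp8 lay above VC, at 2W both Mmp3 values of MXD (6638 and 5078) lay below VC, and at 3W both Mmp11 values of MXD (1143 and 1024) lay below VC. Signals of different weeks come from different slides and are not on 1 scale.

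Of the members, 8 have their oligos within 415 kb of chromosome 9 (7282762 to 7697700 of mm9): Mmp10, Mmp12, Mmp13, Mmp1a, Mmp20, Mmp3, Mmp7 and Mmp8. The called genes of this cluster were Mmp13 and Mmp8 in MXD at 1W, and Mmp3 and Mmp20 in MXD at 2W, where Mmp3 was down- and Mmp20 up-regulated. Their promoter sequences from RefSeq (GRCm38.p6) are shown to compare the AP-1 motif, the binding sequence of Fos and Jun proteins that collagenase and stromelysin promoters are known for. The 100 bases before each gene start are given 5′ to 3′ on the gene's strand, with each match to TGANTCA in capitals. They are chr9:7272414-7272513, chr9:7558329-7558428, chr9:7445722-7445821 and chr9:7628131-7628230, all on the plus strand.
Mmp13: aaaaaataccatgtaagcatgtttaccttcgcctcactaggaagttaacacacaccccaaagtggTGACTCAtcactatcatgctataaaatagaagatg
Mmp8: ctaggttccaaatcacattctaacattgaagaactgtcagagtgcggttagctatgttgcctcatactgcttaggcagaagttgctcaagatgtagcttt
Mmp3: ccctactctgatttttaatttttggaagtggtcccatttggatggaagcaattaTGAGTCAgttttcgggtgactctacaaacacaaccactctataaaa
Mmp20: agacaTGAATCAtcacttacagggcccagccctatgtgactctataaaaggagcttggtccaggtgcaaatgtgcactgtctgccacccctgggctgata
TGANTCA, which reads alike on both strands, was searched with TATAAA in the 250 bases before the start on both strands. It was found in 6.75% of all 32851 promoters of the RefSeq table. Of 29 members with a promoter in the table, 7 held it, namely Mmp1a, Mmp3, Mmp7, Mmp10, Mmp12, Mmp13 and Mmp20. All 7 are in the chromosome 9 cluster, and no window of Mmp8 held it. Mmp12 has 2 starts in the table, and the motif was found before the one that lies 2977 bases inside the gene and not before the outermost one. The match starts at base -35 in Mmp13, -46 in Mmp3 and -95 in Mmp20. TATAAA was held by 12.4% of all promoters and by 8 members, among them Mmp13, Mmp3 and Mmp20. Of the called members of the cluster, Mmp8 had no match, and Mmp3 and Mmp20, which had one, were called down- and up-regulated in MXD at 2W. The calls of Mmp8, Mmp13 and Mmp20 were not kept with normexp and loess. A part of the motif in these values was not tested. A match describes these letters and not a bound site.

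The gelatinases digest denatured collagen and basement membrane collagen. Neither was called in any comparison. Mmp2 had its lowest value in MXD at 2W, -0.87 ± 0.57, with signals of 11015 and 11826 in VC and 7991 and 4891 in MXD. Mmp9 had -1.03 ± 0.70 there, with 314 and 353 in VC and 216 and 123 in MXD. In each case MXD lay below VC on both arrays, but P was 0.0263 and 0.0131 on the first array. The other Mmp9 oligo, printed 10 times on each array, had -0.86 ± 0.58. In the other 5 comparisons Mmp2 lay between -0.28 and 0.21 and Mmp9 between -0.30 and 0.17.

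Membrane-type MMPs act at the cell surface, and MMP-14 among them activates proMMP-2. No member of this family was called. Mmp14 had -0.60 ± 0.13 in MXD at 2W, where P was 0.00119 and 0.0148, and 0.21 ± 0.11 and -0.31 ± 0.03 at 1W and 3W. In N-CE it lay between 0.00 and 0.04. Mmp15 was among the 3 lowest members in MXD at 1W with -0.39 ± 0.02. On the oligos used, Mmp16 and Mmp17 stayed between -0.25 and 0.37 in all 6 comparisons, and Mmp25 was above background in 1 group of 1 comparison. A dimmer Mmp17 oligo had -0.30 ± 0.29, -0.39 ± 0.19 and 0.41 ± 1.07 in MXD at 1W, 2W and 3W, none of them called.

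Among the remaining MMPs, Mmp28 and Mmp20 were called in MXD at 2W. Mmp28 (epilysin), an MMP of epidermal keratinocytes, was down-regulated (oligo on chromosome 11, 83275493 to 83275552 of mm9). Its signals were 139.7 and 100.5 in VC and 63.6 and 55.6 in MXD, a log2 fold of -0.99 ± 0.20. With normexp and loess it was -0.39 and not called. Of 7 epidermis markers 3 were down- and 1 up-regulated in the same comparison, with a median of -0.05 ± 0.12, and their part in Mmp28 was not tested. It was among the 3 highest members of N-CE at 1W with 0.36 ± 0.13, not called. Mmp20 (enamelysin), known as the enamel protease of teeth, was above background on both MXD arrays at 2W with 55.5 and 51.1 and on no VC array with 13.4 and 18.8. It was called up-regulated, at least 1.16-fold higher than VC, although with normexp and loess the log2 fold was 0.22 and not called (oligo on chromosome 9, 7674310 to 7674369 of mm9). The other comparison that measured Mmp20 was N-CE at 2W, with 0.28 ± 0.00. Mmp19 and Mmp23 were measured in all comparisons and called in none, with lowest values of -0.14 ± 0.01 and -0.63 ± 0.41.

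The procollagen N-propeptidases Adamts2, Adamts3 and Adamts14 remove the amino-terminal propeptide of fibrillar procollagens, and all 3 were called in MXD at 2W, in different directions. Of all measured genes, 6.21% were up- and 10.0% down-regulated in that comparison, which had the most calls. Adamts2, the main enzyme of this kind for type I collagen in skin, was down-regulated (oligo on chromosome 11, 50617472 to 50617531 of mm9). Its signals were 18216 and 11476 in VC and 7418 and 7291 in MXD, and its log2 folds -1.30 and -0.65. A second oligo of similar brightness was called too, with -1.03 ± 0.17, and 2 dimmer ones had -0.70 ± 0.52 and -0.64 ± 1.21. Adamts14 was up-regulated, with 104 and 85.5 in VC, 167 and 147 in MXD and a log2 fold of 0.73 ± 0.07, which was 0.39 and not called with normexp and loess. At 1W it had been -0.34 ± 0.31 and not called. Adamts3, which also processes VEGF-C, was up-regulated with 103 and 83.2 in VC, 186 and 194 in MXD and a log2 fold of 1.04 ± 0.26 (oligo on chromosome 5, 90104154 to 90104213 of mm9). In N-CE at 1W Adamts3 was down-regulated, with 81.7 and 82.6 in VC and 23.5 and 39.4 in N-CE, a log2 fold of -1.43 ± 0.52. The groups did not overlap in either case, but the N-CE signals of Adamts3 were dim and its fold there depended on the background correction. With normexp and loess the log2 folds of Adamts3 were 0.52 in MXD at 2W, not called, and -0.44 in N-CE at 1W, still called. Substrates of these enzymes in MXD at 2W included Col3a1, down-regulated with -0.86 ± 0.18. Col1a1 had -0.58 ± 0.20 and Col1a2 -0.82 ± 0.41, neither of them called. Of 8 fibroblast markers 3 were down-regulated there, with a median of -0.70 ± 0.17 and summed levels of 241430.0 and 247033 in VC and 156054 and 120728 in MXD. Their part in the value of Adamts2 was not tested.

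Of the 7 proteoglycanases, which cut versican or aggrecan, all 7 were higher than VC in MXD at 1W, with a median of 0.46 ± 0.01 and 0 calls. Of all measured genes, 9087 of 18557 were higher there. Adamts15 had 0.62 ± 0.17, Adamts1 0.56 ± 0.05, Adamts9 0.47 ± 0.09, Adamts4 0.46 ± 0.30 and Adamts5 0.41 ± 0.12. All but Adamts8, which had 0.02 ± 0.15, had positive values on both arrays. As for N-CE at 1W, 6 of the 7 were lower than VC, with a median of -0.21 ± 0.06 and Adamts9 at -0.41 ± 0.03. Of all measured genes, 9667 of 18240 were higher than VC in that comparison. In MXD at 2W 1 of the 7 was up-regulated, Adamts20, the enzyme whose mutation causes the belted white-spotting coat of mice (oligo on chromosome 15, 94181910 to 94181969 of mm9). Its signals were 69.1 and 50.5 in VC and 147 and 99.4 in MXD, a log2 fold of 1.03 ± 0.08, which was 0.41 and not called with normexp and loess. In N-CE at 1W Adamts20 was above background in VC on both arrays with 30.8 and 31.3 and in N-CE on neither with 24.0 and 7.03, at least 1.11-fold lower but not called. A second, dimmer oligo of Adamts20 was above background in N-CE only at that week, with 0.60 ± 2.80 and opposite signs on its 2 arrays. For Adamts9 in MXD at 2W the oligo used had 0.44 ± 0.08 without a call, and a dimmer oligo was called with 1.15 ± 0.19.

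Adamts18 and Adamts19, relatives of each other whose substrates are little known, held the widest range among the members. Adamts18 was up-regulated in MXD at 1W and 2W and down-regulated in N-CE at 1W (oligo on chromosome 8, 116222720 to 116222779 of mm9). At 1W the VC pool gave 308 and 388 on the MXD arrays and 281 and 382 on the N-CE arrays, MXD gave 602 and 569.9 and N-CE 66.7 and 80.4. Both treated pools were thus clear of the common VC, on opposite sides. The log2 folds were 0.76 ± 0.29 and -2.16 ± 0.12, the latter 0.224-fold. With normexp and loess that in N-CE was -1.24 and still called. Without array 1 of MXD at 1W the value there was 0.55 and not called. At 2W MXD gave 1135 and 1328 against 469.7 and 365, a log2 fold of 1.57 ± 0.42 or 2.96-fold. In N-CE at 2W and 3W and in MXD at 3W the values were 0.59 ± 0.06, 0.51 ± 0.18 and 0.32 ± 0.01, positive on all 6 arrays and not called. A dimmer oligo of the gene had 0.19 ± 0.13 in MXD at 1W and was called up-regulated in MXD at 2W with 1.95 ± 0.15 and in N-CE at 2W with 1.02 ± 0.14. It was above background in VC only in N-CE at 1W.

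Adamts19 was down-regulated in N-CE at 1W, where it was above background on both VC arrays with 47.9 and 55.1 and on neither N-CE array with 5.47 and 6.61, at least 1.36-fold lower. With normexp and loess its log2 fold was -0.44, still called. In the same week MXD gave 65.0 and 58.1 beside 44.2 and 59.7 in VC. A second Adamts19 oligo of similar brightness was above background in VC only in N-CE at 1W, with a software ratio of -1.74 ± 0.27 and no call. In MXD at 1W that oligo was above background in VC only as well. At 2W and 3W Adamts19 was among the 3 highest members of every comparison. Its log2 folds on the 2 arrays were 2.33 and 0.65 in MXD at 2W and 1.36 and 0.13 at 3W. In N-CE they were 0.82 and 0.80 at 2W and 1.72 and 0.75 at 3W. None of these was called, and in MXD the arrays differed widely. Adamts6, Adamts7, Adamts10, Adamts12 and Adamts16 were called in no comparison. Adamts10 was among the 3 highest members above background in both groups of N-CE at 3W, with -0.02 and 0.85 on the 2 arrays. For Adamts12 the bright oligo had 0.19 ± 0.06 in MXD at 1W and 2 dim ones had 0.60 ± 0.57 and 0.58 ± 0.47.

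Of the 43 members, Adamts1, Adamts3, Adamts18, Adamts19 and Adamts20 had mean log2 folds of the same sign as the median of the hair follicle markers in all 6 comparisons. Those of Adamts1, called in none, were 0.56 ± 0.05, 0.64 ± 0.21 and 0.09 ± 0.00 in MXD and -0.26 ± 0.04, 0.14 ± 0.00 and 0.26 ± 0.13 in N-CE. The 12 markers, keratins of the growing hair and regulators such as Lef1 and Hoxc13, had median log2 folds of 0.58 ± 0.01, 1.21 ± 0.08 and 0.14 ± 0.11 in MXD and -2.53 ± 0.13, 0.37 ± 0.17 and 0.11 ± 0.07 in N-CE. In MXD at 2W all 12 were up-regulated and in N-CE at 1W all 12 were down-regulated, and none was below background in either group. Their summed levels in N-CE at 1W were 223165 and 199310.0 in VC and 39967 and 28418 in N-CE. In MXD at 2W they were 146820.0 and 208746 in VC and 411937 and 407613 in MXD. MXD and N-CE of a week share the VC pool, so their values are given side by side and no correlation was computed. The 5 genes were grouped after their values were seen, and the part of follicle content in them was not tested.

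**Figure D5:**
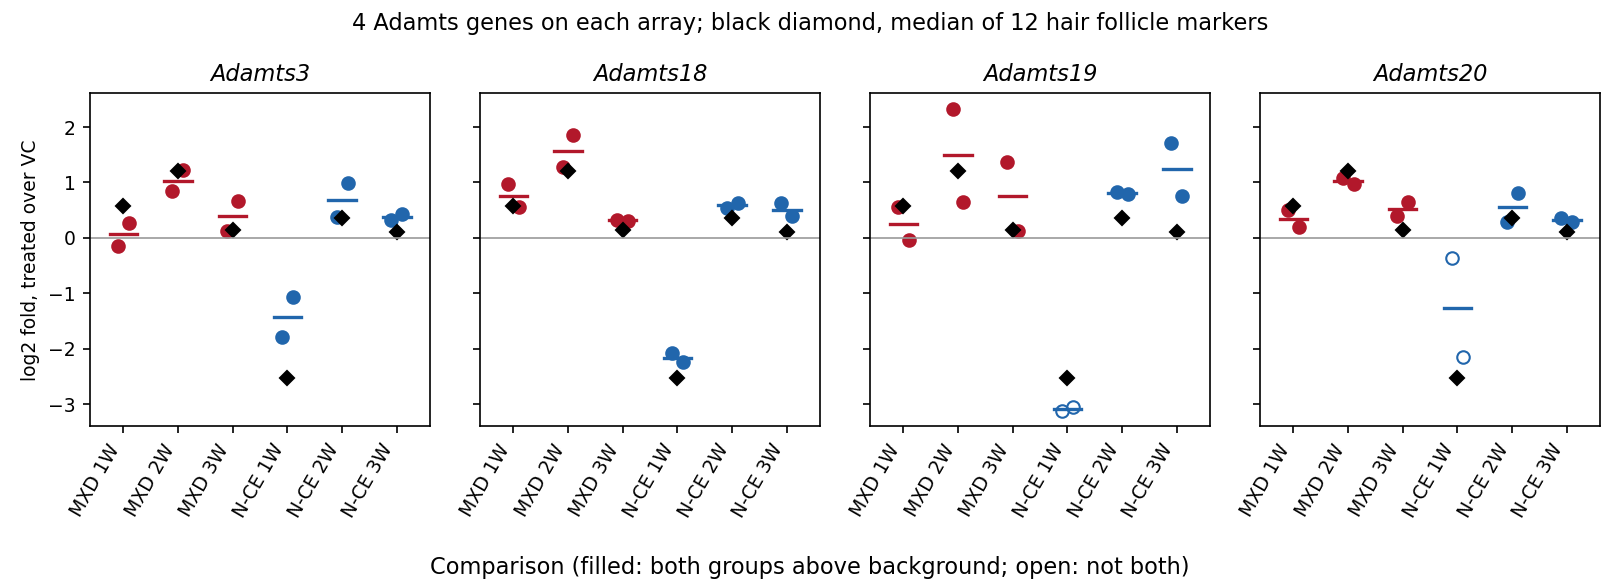
Log2 fold, treated over VC, of Adamts3, Adamts18, Adamts19 and Adamts20 on each array (points; red, MXD; blue, N-CE; open where a group was above background on neither array) with the mean of the dye swap (line) and the median of 12 hair follicle markers (black diamond). All 4 genes lay above 0 on both arrays of MXD at 2W and below 0 on both arrays of N-CE at 1W. The open points of Adamts19 and Adamts20 are the software's ratio and not a measured fold.

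Stretches before a RefSeq start are shown for Adamts3, Adamts18 and Adamts20, to set their base composition beside that of the 4 Mmp sequences. The 1 start that the promoter table lists for each lies 334, 504 and 27724 bases inside the outermost annotated start of the gene, so the sequence before that outermost start is not shown. None of the 3 held TGANTCA or TATAAA in its 250 bases, while Adamts1, not shown, held TATAAA from base -32. The 100 bases before the listed start (GRCm38.p6, minus strand) are chr5:89883335-89883434, chr8:113848840-113848939 and chr15:94404351-94404450.
Adamts3: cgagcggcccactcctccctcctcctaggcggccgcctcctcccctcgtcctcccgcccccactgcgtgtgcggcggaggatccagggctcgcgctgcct
Adamts18: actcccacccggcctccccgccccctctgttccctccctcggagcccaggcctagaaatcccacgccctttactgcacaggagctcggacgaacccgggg
Adamts20: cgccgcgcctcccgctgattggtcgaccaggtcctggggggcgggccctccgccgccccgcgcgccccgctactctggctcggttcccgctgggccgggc
G and C made up 76%, 69% and 81% of these bases, against 38% in Mmp13, 42% in Mmp8, 38% in Mmp3 and 51% in Mmp20. Among other members it was 90% in Adamts14, 65% in Timp1, 49% in Timp4 and 44% and 42% before the starts of Mmp12. The median over all 32851 promoters was 55%, with quartiles of 46% and 65%.

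Whether a gene moved alike in all weeks was tested with limma on the weekly log2 folds, with weeks standing in for replicates. By limma with Benjamini-Hochberg adjustment 0 of 41068 oligos (0.00%) passed an adjusted p of 0.05 for MXD, 0 of 40895 (0.00%) for N-CE and 0 of 40820 (0.00%) for their difference, against 3098, 1490 and 2021 at an unadjusted p under 0.05. Among the members the lowest unadjusted p was that of Timp4 in MXD, with a mean log2 fold of -0.76, a standard error of 0.0653 and a limma adjusted p of 0.626. It was below VC in 3 of 3 weeks. For MXD minus N-CE, Timp4 had -0.68 with a standard error of 0.178 and a limma adjusted p of 0.75. Adamts20 in MXD had 0.63 with a standard error of 0.176 and the same adjusted p as Timp4.

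Genes that regulate, resemble or serve as substrates of these enzymes were called mostly in MXD, as were genes in general. Of all measured genes, 1.25% were up-regulated in MXD at 1W, 10.0% down-regulated in MXD at 2W and 2.77% down-regulated in N-CE at 1W. Among the other protease regulators, 2 of 11 measured were down-regulated in MXD at 2W, Reck, a membrane-bound MMP inhibitor, with -0.84 ± 0.27, and Serpine2 with -0.89 ± 0.26. Adam8, a protease of leukocytes, was up-regulated in MXD at 1W with 0.73 ± 0.12 and down-regulated at 2W with -0.92 ± 0.47. Adam33 was down-regulated at 2W with -1.04 ± 0.11. Among the ADAMTS-like proteins, which lack a protease domain, Adamtsl4 was down-regulated at 2W with -1.08 ± 0.51. Of 24 matrix substrates measured in MXD at 2W, 8 were down- and 0 up-regulated, with a median of -0.60 ± 0.21. They were Col2a1, Col3a1, Col7a1, Col17a1, Lamb3, Dcn, Comp and Vwf, with Comp at -1.20 ± 0.42 and Dcn at -0.98 ± 0.17. Of 23 substrates measured in N-CE at 1W, 1 was down-regulated, Acan, the aggrecan core protein, with -1.19 ± 0.22. In MXD at 3W and in N-CE at 2W and 3W 0 genes of these 4 lists were called. At most 0.293% of all measured genes were called in either direction there. The 6 endothelial markers had medians of -0.04, -0.39 and -0.03 in MXD, with 0, 2 and 0 down-regulated.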

How the data were processed

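RNA of back skin, pooled over 6 mice per group, was hybridized on 12 two-colour arrays (design build mm9). The deposited scanner files hold, per the file headers, a log10 ratio (Cy5 to Cy3) that followed the authors' background subtraction and LOWESS dye normalization, its p-value from the error model of Agilent Feature Extraction (12.0.3.1 in the headers, 11.0.1.1 in the submitters' processing notes), spot and background intensity and processed intensity. The authors deposited a matrix too, used as an alternative, which holds log10 ratios of the processed intensities. Across spots its r with the ratio used here lay between 0.79 (an N-CE array of 3W) and 1.00 (an MXD array of 1W).
The sign of each ratio was set so that treated stood over VC, values were converted to log2, spots marked as outliers were left out (0 spots were saturated), spots of an oligo were averaged, and both arrays of a dye swap were averaged. Between 57.0% and 69.6% of spots per channel were above background. The brightest oligo over the 12 arrays stood for a gene. A call needed P under 0.01 on both arrays, in 1 direction, with a fold above 1.5 or below 0.75. With 1 pool per group no test between mice was possible, and limma 3.58.1 (R 4.3.3) took the 3 weeks as replicates, with Benjamini-Hochberg adjustment at 0.05. Bounds used normexp (offset 50), loess and Aquantile. Scripts (Python 3.11.15) were tested on simulated data.
The members and the gene lists were chosen with earlier results of these data known. Named were all Timp genes, the gelatinases and Mmp14, every called member and the 3 highest and 3 lowest members of a comparison. Others are named to complete a family, after their values were seen. Of the oligos, 63 of 74 have an accession in the RefSeq table, and all 43 symbols matched. Alternatives changed the P criterion, the fold, the background correction, the filter, the oligo, the outliers, the centring, the source of the ratio and the arrays or weeks used. A result for 1 further protease regulator is not reported here.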

Additional observations from a re-analysis of the deposited data

Results flagged for a closer look

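Several members moved one way on both arrays of one comparison and the opposite way on both arrays of another, and none of these differences was tested. They are given as differences of mean log2 folds.

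For Adamts18, the value of MXD at 1W minus that of N-CE at 1W was 2.92, N-CE at 1W minus N-CE at 2W was -2.75, and N-CE at 1W minus N-CE at 3W was -2.67. For Adamts3, N-CE at 1W minus N-CE at 2W was -2.12 and minus N-CE at 3W -1.81.

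For Timp1, MXD at 1W minus MXD at 2W was 1.46, and minus MXD at 3W 1.55. Timp4 in MXD at 1W minus N-CE at 1W was -1.05. Mmp3 in MXD at 1W minus MXD at 2W was 1.44, Mmp11 in MXD at 1W minus MXD at 3W was 1.72, and Adamts14 in MXD at 1W minus MXD at 2W was -1.07. MXD and N-CE of 1W share a VC pool, and values of different weeks lie on different slides.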

How the results depend on the processing

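Of the 18 calls, 11 were kept with normexp and loess, 17 without the first array of each pair and 18 without the second. All 18 were kept under each setting that made the fold symmetric, used the deposited matrix, kept outlier spots or centred each array. The deposited matrix left the folds of these calls nearly unchanged, so for them it was hardly a different setting. Leaving out the P criterion can only add calls, so that it kept all 18 was fixed in advance. With the P criterion left out, and with it the need for both arrays to point one way, the up-regulated members numbered 7 in MXD at 1W, 1 in MXD at 3W, 2 in N-CE at 1W, 3 in N-CE at 2W and 1 in N-CE at 3W, and the down-regulated ones 9 in MXD at 2W and 3 in N-CE at 3W. With normexp and loess, MXD had 2 up-regulated members at 1W and 1 at 2W. With any oligo of a gene allowed to call it, 1 was up-regulated in N-CE at 2W. Where both groups had to be above background on both arrays, 1 was down-regulated in N-CE at 1W. Leaving out either array, so that 1 array remains and there is no check by the dye swap, gave 5 to 8 up-regulated members and 1 down-regulated in MXD at 1W, 6 up and 4 to 10 down in MXD at 2W, and 0 to 1 up and 2 to 3 down in MXD at 3W. In N-CE it gave 0 to 1 up and 3 to 4 down at 1W, 0 to 3 up and 0 to 1 down at 2W, and 1 to 2 up and 0 down at 3W. The cause was not tested. The limma counts over weeks were 0 in each alternative run, including the slide as a random block. No further pairing with VC was applied, because each ratio already sets a treated pool against the VC pool of its week on 1 array. For MXD minus N-CE the treatments were paired within a week. Of the folds of named genes recomputed under the alternatives, 43 moved by at least the SD of the 2 arrays and 779 did not. The 7 calls lost with normexp and loess were Mmp13 and Mmp8 in MXD at 1W and Adamts3, Adamts14, Adamts20, Mmp20 and Mmp28 in MXD at 2W, whose processed signals were at most 194.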
